A study of Mus with 12 samples.

Results

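The 9 genes described here, linked to inhibition and exhaustion of cytotoxic T lymphocytes, were followed across wild type, BATF-deficient and RARα-deficient CD8 T cells. Of them, 7 encode inhibitory receptors (Pdcd1, Lag3, Havcr2, Ctla4, Tigit, Cd160 and Btla) and the other two encode transcription factors tied to the exhausted state (Tox and Bhlhe40). They were chosen by gene symbol, and each symbol matched 1 of the 55487 mouse genes in the expression table. Primary naive CD8 T cells came from the spleens of mice on the C57BL/6 background of 3 genotypes, namely wild type (WT), a knockout of the AP-1 factor BATF (BATF-KO), and a knockout of RARα, a receptor for retinoic acid, directed to T cells (RARα-KO). In the last a Cre driven by the distal Lck promoter, which is active in T cells at large, recombines a floxed Rara gene. How the BATF-KO line was made and the age of the mice are not given for these samples in the sources used here. Whether WT mice carried the same Cre is not stated either, and Cre RNA was at 0 to 0.07 FPKM in the WT libraries. Every culture was stimulated for 20 h with plate-bound anti-CD3 at 1 µg/ml, soluble anti-CD28 at 2 µg/ml and IL-2 at 100 U/ml. The serum, at 10%, had been stripped with charcoal. For each genotype there were 2 libraries without and 2 libraries with 15 nM all-trans retinoic acid (RA), the ligand of RARα. That RA was added was read from a suffix in the sample titles. Nothing in these sources says that the replicates were separate mice or cultures, so p-values measure only the spread between these libraries. The values are FPKM, fragment numbers divided by transcript length and by the mapped fragments of the library.

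Inhibitory receptors carry signals that restrain T cells after antigen contact. PD-1 (Pdcd1) binds PD-L1 and PD-L2 and recruits the phosphatase SHP-2, CTLA-4 competes with CD28 for CD80 and CD86, LAG-3 binds MHC class II, TIM-3 (Havcr2) binds galectin-9, TIGIT competes with CD226 for CD155, and CD160 and BTLA share the ligand HVEM. TOX is a nuclear factor required for the exhausted state in chronic infection and tumors, and BHLHE40 is a basic helix-loop-helix repressor expressed in activated T cells. Most of these genes are also switched on transiently by T cell receptor stimulation, so their RNA at 20 h does not by itself mark exhaustion. Exhaustion was not measured in these cultures.

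Pdcd1 (ENSMUSG00000026285) lies on mouse chromosome 1 at 94038305 to 94052553 of GRCm38, and Ctla4 (ENSMUSG00000026011) on the same chromosome at 60909025 to 60915832. Lag3 (ENSMUSG00000030124) lies on chromosome 6 at 124904359 to 124912434 and Bhlhe40 (ENSMUSG00000030103) on chromosome 6 at 108660629 to 108666925. Tigit (ENSMUSG00000071552) and Btla (ENSMUSG00000052013) are both on chromosome 16, at 43626137 to 43665125 and 45223705 to 45252895. Cd160 (ENSMUSG00000038304) is on chromosome 3 at 96798763 to 96829351, Tox (ENSMUSG00000041272) on chromosome 4 at 6686353 to 6991557, and Havcr2 (ENSMUSG00000020399) on chromosome 11 at 46454931 to 46481255.

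The targeted genes were read first. Batf was at 19.1 to 24.5 FPKM in the 4 WT libraries and at 4.05 to 4.90 FPKM in the 4 BATF-KO libraries. Rara was at 13.7 to 17.9 FPKM in RARα-KO and at 11.7 to 14.6 FPKM in WT, and its gene-level value does not check this deletion, which removes only part of the transcript. Cre, a transgene entry in the table, was at 824 and 681 FPKM in RARα-KO replicate 1 without and with RA and at 79.3 and 86.7 FPKM in replicate 2, against 0.13 FPKM or less in the other 8 libraries. Because of that difference between the RARα-KO replicates, results that rest on them are also given without each. RARα-KO and WT libraries thus differed in Cre RNA as well as in the Rara genotype, and an effect of Cre itself was not tested. The 12 B cell markers had sums of 900 to 1122 FPKM in RARα-KO libraries (n = 4) and 267 to 468 FPKM in the others, and the 10 NK and innate-like markers to 80.4 to 113 FPKM against 14.7 to 51.3 FPKM. Conversely, the 10 CD8 T cell markers summed to 2939 to 3676 FPKM in RARα-KO and to 3772 to 4693 FPKM elsewhere, so T cell RNA was abundant in every library. The 5 erythroid markers summed to 143 to 502 FPKM in the replicate 1 libraries and to 11.3 to 28.7 FPKM in replicate 2. The activation-induced genes were lowest in WT replicate 1, at a sum of 528 FPKM over 13 genes, and reached 2138 FPKM in RARα-KO replicate 2.

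**Figure D1:**
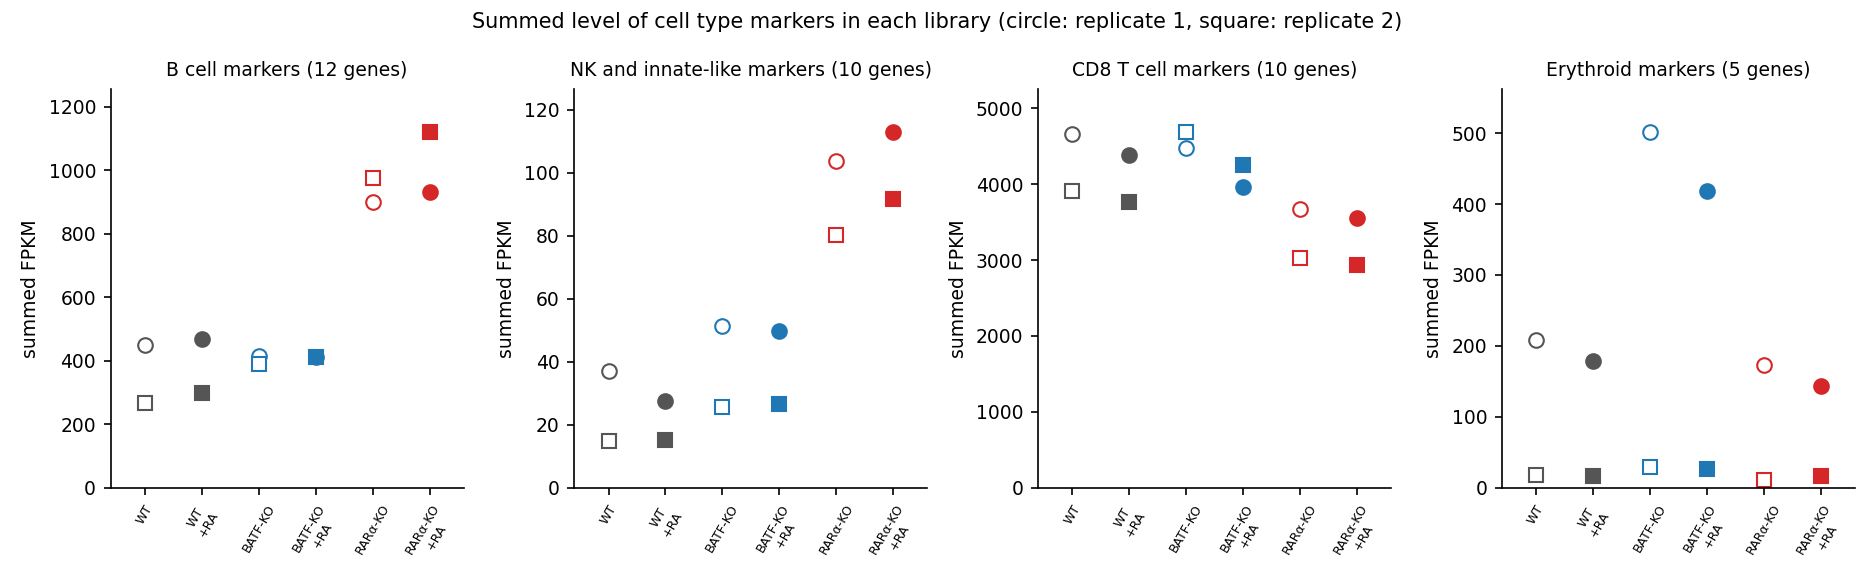
Summed FPKM of B cell, NK and innate-like, CD8 T cell and erythroid markers in each of the 12 libraries, with open symbols for cultures without RA and filled symbols for cultures with RA. The 4 RARα-KO libraries are above the other 8 for B cell and NK markers and below them for CD8 T cell markers, while erythroid markers separate replicate 1 from replicate 2.

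Of the 9 genes, 8 were expressed in every library, at 1 FPKM or more, and Havcr2 reached that level in 2 of the 12. In WT cells without RA the order of the mean levels was Ctla4 at 32.2 ± 10.5 FPKM (SD, n = 2), Btla at 19.2 ± 2.43, Tigit at 14.5 ± 3.71, Cd160 at 13.9 ± 6.73, Lag3 at 13.8 ± 3.39, Pdcd1 at 9.95 ± 4.62, Tox at 7.92 ± 0.170, Bhlhe40 at 5.78 ± 2.78 and Havcr2 at 0.410 ± 0.0424. FPKM is a level per length of transcript, so genes can be set side by side on it. Of the 8 neighbouring pairs in this order, 4 had overlapping libraries, namely Tigit and Cd160, Cd160 and Lag3, Lag3 and Pdcd1, and Pdcd1 and Tox. Ctla4 was the highest of the 9 genes in both WT groups, whereas Btla was the highest in both RARα-KO groups, without RA in overlap with Ctla4, and Tigit was the highest in BATF-KO with RA. Averaged over the 12 libraries, the 8 expressed genes stood between the 38.6th percentile (Tox) and the 67.7th percentile (Ctla4) of the 13396 genes tested, so they were genes of middle abundance. Havcr2 stood at the 0.821st percentile. Summed over the 9 genes, the libraries ran from 98.2 FPKM in WT replicate 1 to 159 FPKM in RARα-KO replicate 2.

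**Figure D2:**
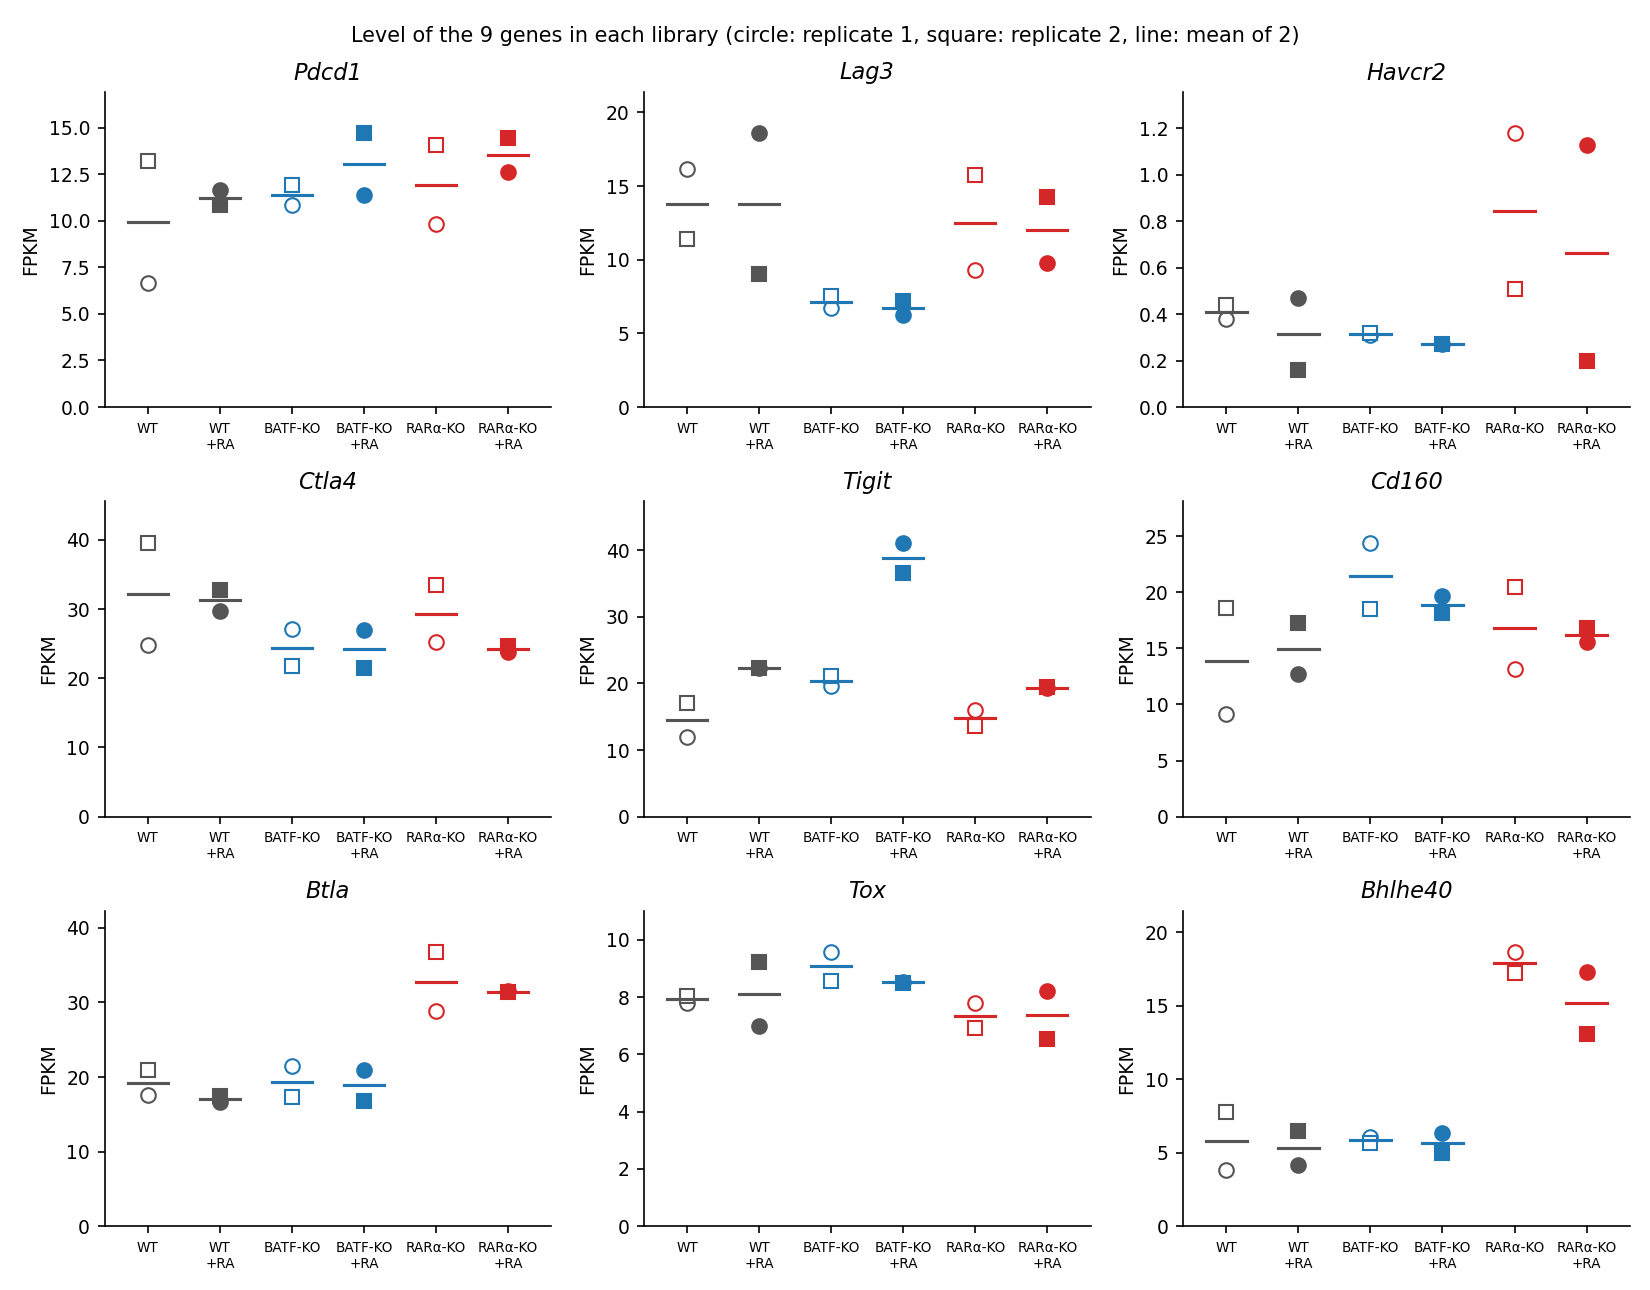
FPKM of each of the 9 genes in each library by group, on linear axes that start at 0, with circles for replicate 1, squares for replicate 2, filled symbols for RA and a line at the mean of 2 libraries. Bhlhe40 and Btla are high in all 4 RARα-KO libraries, Lag3 is low in all 4 BATF-KO libraries, and Tigit is highest in the 2 BATF-KO libraries with RA at 41.2 and 36.6 FPKM.

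To ask how the loss of RARα affects these genes, RARα-KO was compared with WT. Without RA, 1 of the 9 genes passed the test at an adjusted p under 0.05 (limma, Benjamini-Hochberg over all 13396 genes), where 3.29% of all tested genes did. With RA it was 2 of 9, against 3.76% of all genes. The genes were Bhlhe40 in both media and Btla with RA. The median log2 difference over the 9 genes was 0.29 without RA and 0.12 with RA, beside -0.003 and -0.005 over all tested genes. The 9 include Havcr2, which entered the tests only through RARα-KO libraries, so these medians are not free of that selection.

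Bhlhe40 rose in RARα-KO cells. It measured 3.81 and 7.74 FPKM in WT, 4.14 and 6.44 FPKM in WT with RA, 18.6 and 17.2 FPKM in RARα-KO, and 17.3 and 13.0 FPKM in RARα-KO with RA. Every RARα-KO library was above every WT library. Of all tested genes, 29.1% did not overlap between RARα-KO and WT without RA, and 37.9% with RA. The share apart over both media at once was not counted. The ratio of the group means was 3.11 without RA and 2.87 with RA, and on the log2(FPKM + 1) scale used for testing the differences were 1.54 ± 0.28 (SE, adjusted p = 0.0164) and 1.37 ± 0.28 (adjusted p = 0.0273). BATF-KO cells stood with WT, at 6.03 and 5.65 FPKM without RA and 6.35 and 4.94 FPKM with RA. The direct comparison of RARα-KO with BATF-KO gave log2 differences of 1.47 ± 0.28 (adjusted p = 0.0199) without RA and 1.28 ± 0.28 (adjusted p = 0.0374) with RA. For RARα-KO against WT without RA, leaving out WT replicate 2 kept the call, at a difference of 1.98 with an adjusted p of 0.00833, and the other 3 libraries of the comparison each ended it. Leaving out WT replicate 1 gave a difference of 1.11 with an adjusted p of 0.0906. Leaving out RARα-KO replicate 1 gave 1.49 with 0.0897, and replicate 2 gave 1.60 with 0.0773. In the other 3 comparisons, leaving out any single library of the groups compared ended the call, with differences of 1.09 to 1.64 and adjusted p of 0.0505 to 0.286. Between RARα-KO and BATF-KO with RA, leaving out a library of the same genotypes cultured without RA, which enters only the shared spread, also ended it, at adjusted p of 0.0501 to 0.0651.

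Btla, the receptor for HVEM that is also abundant on resting T and B cells, followed the same order of genotypes. Btla measured 17.5 and 21.0 FPKM in WT, 16.7 and 17.5 FPKM in WT with RA, 28.8 and 36.8 FPKM in RARα-KO and 31.5 and 31.3 FPKM in RARα-KO with RA. The RARα-KO libraries were all above the others, with a ratio of means to WT of 1.70 without RA and 1.84 with RA. Between RARα-KO and WT, 29.1% of all tested genes did not overlap without RA and 37.9% with RA. Btla passed with RA, at a log2 difference of 0.84 ± 0.17 (adjusted p = 0.0247). Without RA the difference of 0.73 ± 0.17 had an adjusted p of 0.0532 and did not pass. Over the alternatives this p ran from 0.0397 to 0.398, and it was under the threshold in 2 of them, median-of-ratios scaling (0.0466) and a fit with the replicate number as a block (0.0397). With RA, leaving out any library of the comparison kept the difference at 0.81 to 0.87 and raised the adjusted p to 0.105 or more. BATF-KO held 21.5 and 17.3 FPKM without RA and 21.0 and 16.8 FPKM with RA, and the log2 difference from WT was 0.01 without RA (95% interval -0.38 to 0.39) and 0.13 with RA (-0.25 to 0.52).

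The higher Bhlhe40 and Btla of RARα-KO went together with higher markers of other cells. All 12 B cell markers were higher in RARα-KO than in WT, 11 of them past the test, with a median log2 difference of 2.34 without RA and 2.49 with RA. The 10 NK and innate-like markers were also all higher, 4 past the test without RA and 5 with RA. The 9 myeloid markers were higher in 8 and in 9 cases, 3 and 5 past the test. Ncr1, Klrb1c, Klra4, Klra8, Klra9, Klre1 and Klrc2 of the NK list met the filter only through RARα-KO libraries. The same held for the B cell markers Ebf1 and Cr2 and the myeloid marker Cd14. These counts are therefore not free of that selection. None of the B cell or NK markers was at 0 in any library. B cells are a known site of Btla expression, and the part of these cells in the Btla and Bhlhe40 values was not tested. In bulk RNA a change in the share of a cell type and a change in RNA per cell cannot be told apart. Between replicates 1 and 2 of WT, the B cell markers went from 449 to 267 FPKM in sum and Btla from 17.5 to 21.0 FPKM, and with RA from 468 to 298 FPKM and from 16.7 to 17.5 FPKM. In BATF-KO the sums were 414.5 and 390.0 FPKM with Btla at 21.5 and 17.3 FPKM, and with RA 413 and 411 FPKM with Btla at 21.0 and 16.8 FPKM. In WT the replicate with the higher sum thus had the lower Btla in both media. In BATF-KO it had the higher Btla without RA, and the sums of the cultures given RA hardly differed. Most of each of these sums came from a single marker, Ighm, at 211 to 354 FPKM over the WT and BATF-KO libraries. The mean of log2(FPKM + 1) over the 12 markers, on which Ighm weighs less, differed more in BATF-KO with RA. It was 3.46 in replicate 1, which had the higher Btla, and 3.09 in replicate 2. Whether Btla followed B cell content between replicates was not tested.

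Across the 12 libraries Btla and Bhlhe40 had a Pearson correlation of 0.94 on the log2 scale, over points of which the 4 RARα-KO libraries lie apart. It was 0.68 over the 8 WT and BATF-KO libraries. The genes most like Bhlhe40 over the 12 libraries, among 8634 genes with a mean of at least 5 FPKM, were Hdac10 (0.97), Slfn9 (0.96) and Fscn1 (0.95), and those most like Btla were Fscn1 (0.97), Ms4a4c (0.97) and Hdac10 (0.96). Fscn1 and Hdac10 were shared by both lists. The 12 points fall into 3 genotypes, so these values describe them and carry no test. Over the 8 libraries without RARα-KO, Fscn1 correlated with Btla at 0.77 and Ms4a4c at 0.95.

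**Figure D3:**
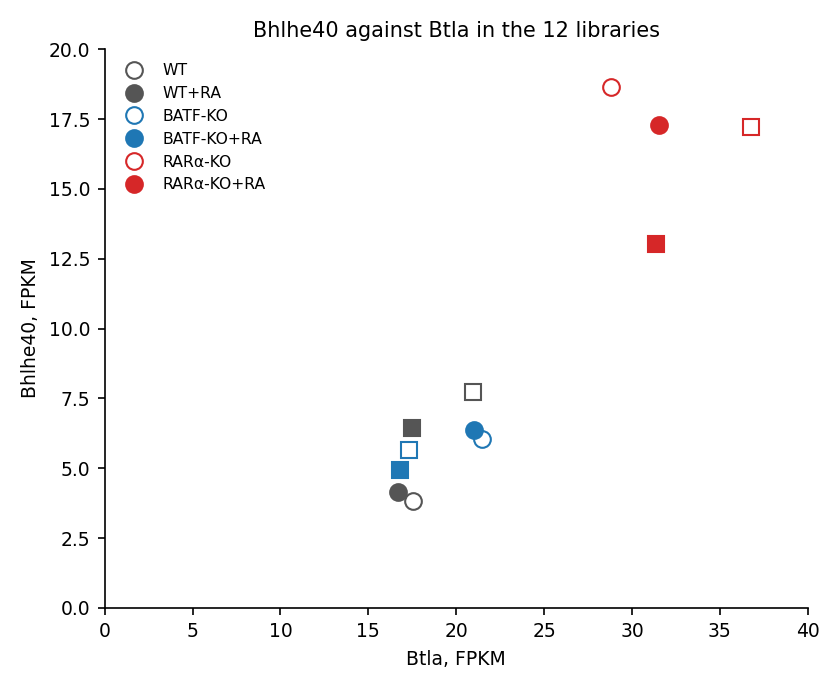
FPKM of Bhlhe40 against FPKM of Btla in the 12 libraries, with circles for replicate 1, squares for replicate 2 and filled symbols for RA. The 4 RARα-KO libraries lie apart at the upper right, with Bhlhe40 at 13.0 to 18.6 FPKM and Btla at 28.8 to 36.8 FPKM, and the 8 others are mixed at the lower left.

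Tigit had its highest level in BATF-KO cells cultured with RA. Without RA its levels were 11.9 and 17.1 FPKM in WT, 19.6 and 21.2 FPKM in BATF-KO and 16.0 and 13.6 FPKM in RARα-KO. In RA they were 22.4 and 22.3 FPKM in WT, 41.2 and 36.6 FPKM in BATF-KO and 19.3 and 19.5 FPKM in RARα-KO. With RA the genotypes did not overlap, and BATF-KO was the highest and RARα-KO the lowest. Between any 2 genotypes with RA, 31.3% to 40.1% of all tested genes did not overlap. The ratio of the RARα-KO mean to the BATF-KO mean was 0.498 with RA, and the log2 difference of -0.97 ± 0.17 passed the test (adjusted p = 0.0108). Leaving out any 1 of these 4 libraries gave -1.05 to -0.88, with adjusted p from 0.0629 to 0.0819, so the call needs all 4 while the size does not. Without RA the difference between the knockouts was -0.44 ± 0.17 (adjusted p = 0.270). In the comparison of RARα-KO with BATF-KO, 1 of 9 genes passed without RA, where 3.75% of all genes did, and 2 of 9 with RA, where 4.16% did.

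None of the 9 genes passed the test between BATF-KO and WT, where 0.0523% of all tested genes passed without RA and 0.0672% with RA (limma, 7 and 9 genes, with 521 and 640 at an unadjusted p under 0.05). Tigit was 1.40 times as high in BATF-KO as in WT without RA (log2 difference 0.48 ± 0.17, unadjusted p = 0.0168 by limma, adjusted p = 1) and 1.74 times as high with RA (0.77 ± 0.17, unadjusted p = 0.00107, adjusted p = 0.293). Both BATF-KO libraries lay above both WT libraries in each medium, where 26.9% of all tested genes did not overlap without RA and 31.3% with RA. Foxp3, which marks regulatory T cells, a population rich in TIGIT, was at 10.2 and 7.68 FPKM in BATF-KO against 1.17 and 4.27 FPKM in WT, and with RA at 9.16 and 8.33 FPKM against 1.56 and 4.46 FPKM. The list of 5 CD4 and regulatory T cell markers summed to 15.4 to 22.7 FPKM in BATF-KO and to 11.7 to 17.7 FPKM in WT, with no marker at 0. In each medium 2 of the 5 were higher in BATF-KO, and the median log2 difference was -0.22 without RA and -0.09 with RA. Cd4, of the same list, went the other way from Foxp3, at 0.73 and 0.92 FPKM in BATF-KO against 3.46 and 4.26 FPKM in WT without RA. RARα-KO held Foxp3 at 8.96 and 4.79 FPKM with Tigit near the WT level, and the part of regulatory T cells in the Tigit values was not tested.

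Lag3 was low in BATF-KO. It measured 6.71 and 7.52 FPKM in BATF-KO and 6.22 and 7.22 FPKM in BATF-KO with RA, against 16.2 and 11.4 FPKM in WT and 18.6 and 9.04 FPKM in WT with RA. All 4 BATF-KO libraries were below all other libraries of the series, the nearest being WT with RA replicate 2. Between BATF-KO and WT, 26.9% of all tested genes did not overlap without RA and 31.3% with RA. The share apart from all other libraries was not counted. The ratio of BATF-KO to WT was 0.516 without RA and 0.486 with RA. The log2 differences were -0.85 ± 0.34 (unadjusted p = 0.0331 by limma, adjusted p = 1) and -0.86 ± 0.34 (unadjusted p = 0.0304, adjusted p = 0.939), and neither passed. Their SE rests on the spread shared by all 6 groups, which was wide in both WT and RARα-KO. The 95% intervals were -1.61 to -0.08 and -1.63 to -0.10. Cd4, whose gene lies near Lag3 on chromosome 6 and marks CD4 T cells, was at 0.73 and 0.92 FPKM in BATF-KO and at 3.46 and 4.26 FPKM in WT without RA (log2 difference -1.41, adjusted p = 0.111). The whole list of 5 CD4 and regulatory T cell markers, which holds both Cd4 and the Foxp3 given above, summed to 22.7 and 15.4 FPKM in BATF-KO and to 13.9 and 17.7 FPKM in WT without RA, in overlap, and the part of CD4 T cells in the Lag3 values was not tested. RARα-KO overlapped WT for Lag3, at 9.32 and 15.7 FPKM without RA and 9.79 and 14.3 FPKM with RA, with log2 differences from WT of -0.15 and -0.13 that changed sign on leaving out single libraries. From BATF-KO it differed by 0.70 ± 0.34 (adjusted p = 0.457) without RA and 0.74 ± 0.34 (adjusted p = 0.397) with RA.

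**Figure D4:**
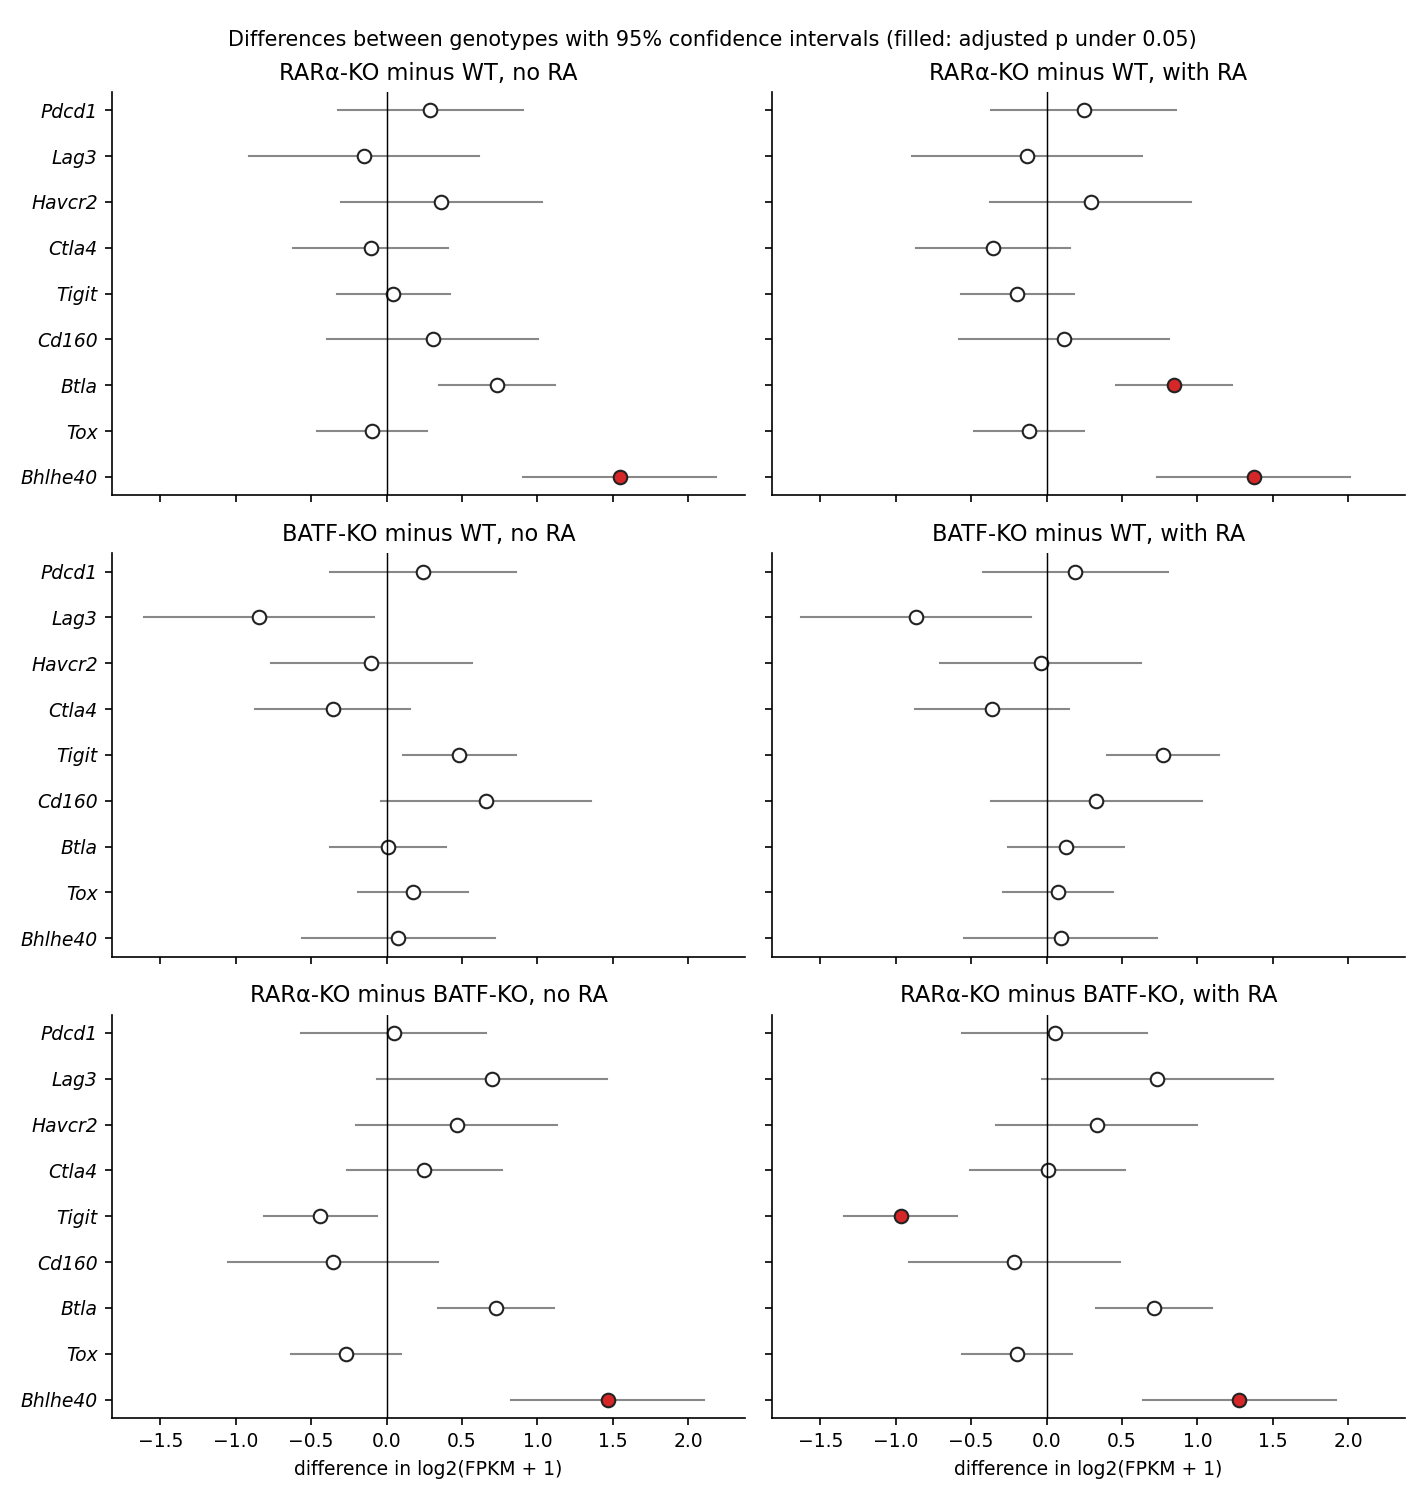
Differences in log2(FPKM + 1) between genotypes for the 9 genes, without RA (left) and with RA (right), with 95% confidence intervals from limma and filled points where the adjusted p was under 0.05. Bhlhe40 is right of 0 in the 4 comparisons with RARα-KO, Tigit is left of 0 at -0.97 between RARα-KO and BATF-KO with RA, and no point is filled between BATF-KO and WT.

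The canonical checkpoint genes Pdcd1 and Ctla4 were not shown to differ between genotypes. Pdcd1 was at 6.68 and 13.2 FPKM in WT, 10.8 and 11.9 FPKM in BATF-KO and 9.83 and 14.1 FPKM in RARα-KO, and WT overlapped both knockouts. The log2 difference from WT was 0.24 for BATF-KO (95% interval -0.37 to 0.86) and 0.29 for RARα-KO (-0.32 to 0.90), and both turned negative without WT replicate 1, at -0.20 and -0.15. With RA, Pdcd1 was at 11.6 and 10.8 FPKM in WT, 11.4 and 14.7 FPKM in BATF-KO and 12.6 and 14.4 FPKM in RARα-KO. BATF-KO thus overlapped WT, whereas both RARα-KO libraries were above both WT libraries without passing the test (limma, adjusted p = 0.833). Ctla4, the most abundant of the 9 genes in WT, was at 24.8 and 39.6 FPKM in WT, 27.1 and 21.8 FPKM in BATF-KO and 25.3 and 33.5 FPKM in RARα-KO. With RA its values were 29.8 and 32.7 FPKM in WT, 26.9 and 21.5 FPKM in BATF-KO and 23.8 and 24.6 FPKM in RARα-KO, so both knockouts were below WT without overlap. With RA, 31.3% of all tested genes did not overlap between BATF-KO and WT, and 37.9% between RARα-KO and WT. The log2 differences with RA were -0.36 ± 0.23 for BATF-KO (adjusted p = 1) and -0.35 ± 0.23 for RARα-KO (adjusted p = 0.635). The intervals of these comparisons reached -0.88 and -0.87 at their lower ends, and their upper ends were 0.15 and 0.16.

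Cd160, the other HVEM receptor of the list, was at 9.13 and 18.6 FPKM in WT, 24.4 and 18.5 FPKM in BATF-KO and 13.1 and 20.5 FPKM in RARα-KO. In RA it held 12.7 and 17.2 FPKM in WT, 19.6 and 18.2 FPKM in BATF-KO and 15.6 and 16.8 FPKM in RARα-KO. The groups overlapped without RA, and the log2 difference between BATF-KO and WT was 0.66 ± 0.31 without RA (unadjusted p = 0.0612 by limma) and 0.33 ± 0.31 with RA, both at an adjusted p of 1. WT replicate 1 decided this value, since the difference without RA was 0.18 without that library and 1.14 without WT replicate 2. RARα-KO and WT overlapped for Cd160 in both media.

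Tox was the most even of the 9 genes, with its highest library 1.47 times its lowest. Tox measured 7.80 and 8.04 FPKM in WT, 9.57 and 8.57 FPKM in BATF-KO and 7.79 and 6.92 FPKM in RARα-KO, and with RA at 6.98 and 9.23, 8.54 and 8.50, and 8.21 and 6.52 FPKM. The log2 difference from WT without RA was 0.17 for BATF-KO (95% interval -0.19 to 0.54) and -0.10 for RARα-KO (-0.46 to 0.27). Bhlhe40 and Tox, the transcription factors of the list, thus had the widest and the narrowest range of the 8 expressed genes, with a ratio of highest to lowest library of 4.89 for Bhlhe40.

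Havcr2 reached 1 FPKM in 2 of the 12 libraries, both from RARα-KO replicate 1, and entered the tests only through them. It was at 1.18 and 0.51 FPKM in RARα-KO and at 1.13 and 0.20 FPKM in RARα-KO with RA. The other groups held 0.38 and 0.44 FPKM (WT), 0.47 and 0.16 FPKM (WT with RA), 0.31 and 0.32 FPKM (BATF-KO) and 0.27 and 0.27 FPKM (BATF-KO with RA). The level in RARα-KO thus came from 1 replicate number, the one with the higher Cre. The log2 difference from WT was 0.36 ± 0.30 without RA (adjusted p = 0.876) and 0.29 ± 0.30 with RA (adjusted p = 0.813), a scale on which 1 FPKM was added and the change of so low a gene is understated. Without both RARα-KO replicate 1 libraries the difference with RA was -0.12.

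RA was compared with no RA within each genotype to ask whether the ligand moves these genes. No member passed the test in WT, BATF-KO or RARα-KO, where 0.0672%, 0.157% and 0.00746% of all genes passed. By limma 659, 440 and 190 genes had an unadjusted p under 0.05. Same-numbered cultures of a genotype deviated together and were paired in a second fit, which raised the number of genes passing from 9 to 70 in WT, from 21 to 119 in BATF-KO and from 1 to 11 in RARα-KO, again without a member.

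Tigit was higher with RA in all 6 pairs, which held for 7.88% of the tested genes. The ratio of RA to no RA ran from 1.21 in RARα-KO replicate 1 to 2.10 in BATF-KO replicate 1, with 1.88 in WT replicate 1 and 1.73 and 1.43 in the second replicates of BATF-KO and RARα-KO. The cultures with RA lay above those without RA in every genotype. Of all tested genes, 34% in WT, 31.7% in BATF-KO and 14.8% in RARα-KO did not overlap between these cultures. The log2 difference was 0.61 ± 0.17 in WT (unadjusted p = 0.00485 by limma, adjusted p = 0.555), 0.90 ± 0.17 in BATF-KO (unadjusted p = 0.00037, adjusted p = 0.127) and 0.37 ± 0.17 in RARα-KO (unadjusted p = 0.0511, adjusted p = 1). In the paired fit the adjusted p was 0.110, 0.0556 and 0.959. For BATF-KO it ranged from 0.0451 to 0.799 over the alternatives and was under the threshold when either WT library without RA was left out of the shared estimate of the spread. The RA difference of RARα-KO minus that of WT was -0.24 ± 0.24, and that of BATF-KO minus WT was 0.29 ± 0.24, both at an adjusted p of 1. The 95% intervals, -0.77 to 0.29 and -0.24 to 0.82, leave the relation of the 3 genotypes undetermined. Neither of these 2 tests of a difference in RA response called any of the 9 genes, and 0% of all genes were called in each.

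**Figure D5:**
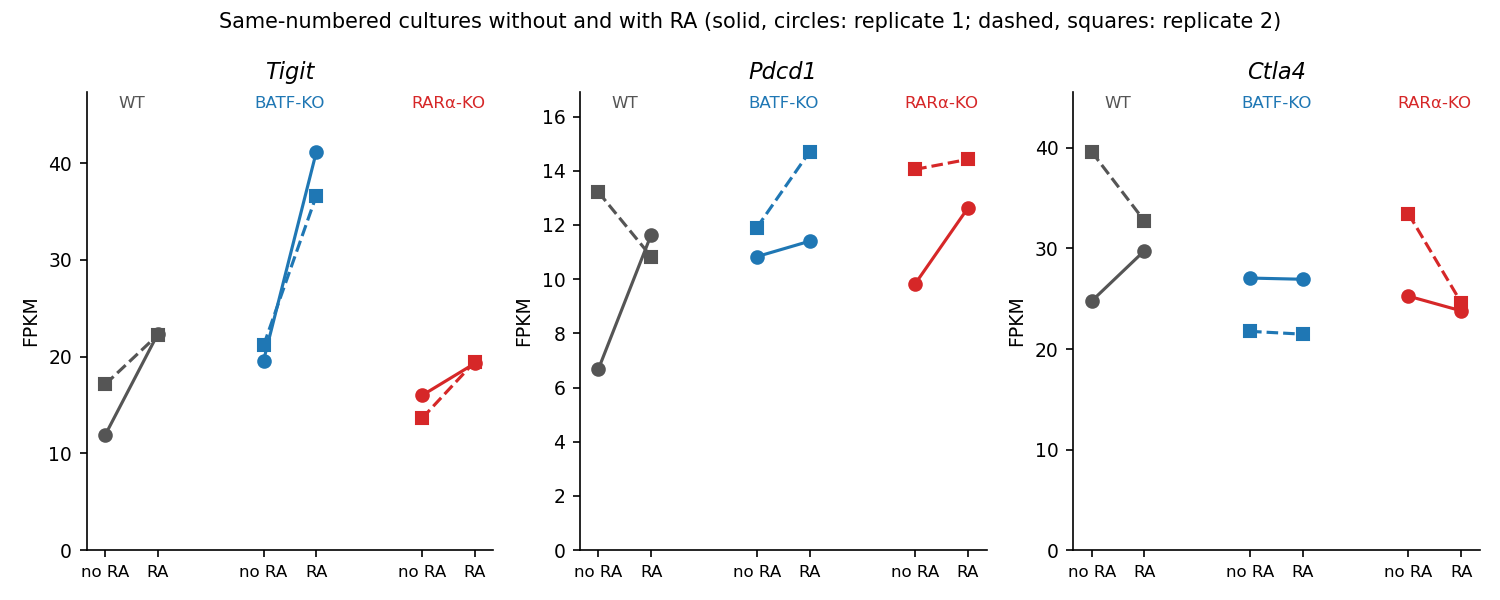
FPKM of Tigit, Pdcd1 and Ctla4 in same-numbered cultures without and with RA, joined by solid lines for replicate 1 and dashed lines for replicate 2. All 6 Tigit lines go up, the 2 WT lines go in opposite directions for Pdcd1 and for Ctla4, and 5 of 6 Ctla4 lines go down.

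The gene whose levels were most like those of Tigit over the 12 libraries was Izumo1r, which encodes folate receptor 4, with a Pearson correlation of 0.95. Pacsin1 followed at 0.92 and Fam216a at 0.90. Izumo1r was at 21.5 and 34.4 FPKM in WT, 55.9 and 48.7 FPKM in WT with RA, 43.2 and 45.7 FPKM in BATF-KO and 71.5 and 64.8 FPKM in BATF-KO with RA. In RARα-KO it was at 30.1 and 30.0 FPKM, and with RA at 37.8 and 39.0 FPKM. Izumo1r was thus also highest in BATF-KO with RA, and over the 8 libraries without RARα-KO its correlation with Tigit was 0.94.

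The other members did not pass with RA, and for each of them the pairs did not all go the same way. Pdcd1 was higher with RA in 5 of 6 pairs, with ratios of 0.820 to 1.74. In WT the ratio was 1.74 in the first pair and 0.820 in the second, where WT replicate 1 without RA was the low library, and the log2 difference of 0.23 turned to -0.22 without it. Ctla4, Btla and Havcr2 were each lower with RA in 5 of 6 pairs, with Ctla4 ratios of 0.736 to 1.20 and Btla ratios of 0.833 to 1.09. Some of these falls were slight, as in BATF-KO with Ctla4 ratios of 0.996 and 0.987 and Btla ratios of 0.978 and 0.972. The share of all genes with 5 of 6 pairs in the same direction was not counted. The Havcr2 ratios ran from 0.364 to 1.24, at levels of 0.16 to 1.18 FPKM. Lag3, Cd160, Tox and Bhlhe40 were lower with RA in 4 of 6 pairs. Apart from Tigit, the log2 differences with RA of the 8 other genes ran from -0.16 (Btla) to 0.23 (Pdcd1) in WT, from -0.16 to 0.18 in BATF-KO and from -0.26 to 0.18 in RARα-KO.

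Genes that act beside these receptors were read from 5 lists. Of 14 other inhibitory receptors tested, 9 were higher in RARα-KO than in WT in each medium, beside 49.1% and 49.0% of all tested genes, with a median log2 difference of 0.32 without RA and 0.72 with RA. Klrg1, among the 14, entered the tests only through RARα-KO libraries. Of the 14, the same 3 rose past the test in both media and none fell past it. They were Cd38, an ectoenzyme that consumes NAD (2.07 without RA, adjusted p = 0.000747, and 1.84 with RA, adjusted p = 0.00147), Lilrb4a, an immunoglobulin-like receptor (1.72, adjusted p = 0.00955, and 1.45, adjusted p = 0.0213), and Entpd1, which encodes the ATP-degrading enzyme CD39 (1.18, adjusted p = 0.0378, and 1.61, adjusted p = 0.00696). Entpd1 was at 4.19 and 1.96 FPKM in RARα-KO and 0.72 and 0.73 FPKM in WT. B cells and myeloid cells also express Cd38, Entpd1 and Lilrb4a, and the part of those cells was not tested. None of these 14 receptors passed between BATF-KO and WT or with RA.

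Among 19 exhaustion-linked and activation transcription factors, Maf was higher in RARα-KO than in WT without RA (0.78, adjusted p = 0.0385), and Maf (1.08, adjusted p = 0.00637) and Zeb2 (1.13, adjusted p = 0.0424) with RA. Maf reached 1 FPKM only in RARα-KO libraries and entered the tests through them. Of the 19 factors, Batf was the only one to pass between BATF-KO and WT. Against BATF-KO, RARα-KO without RA was higher for Tbx21, which encodes the effector factor T-bet (3.01, adjusted p = 0.0156), which was at 16.7 and 47.3 FPKM in RARα-KO and 3.10 and 2.21 FPKM in BATF-KO. Of 13 ligands and partners tested, Lgals3, which encodes the LAG-3 ligand galectin-3, was the only one to pass between BATF-KO and WT. It was at 39.7 and 38.2 FPKM in BATF-KO against 7.09 and 8.65 FPKM in WT (2.18, adjusted p = 0.0170), and at 22.8 and 21.0 FPKM against 5.56 and 5.56 FPKM with RA (1.80, adjusted p = 0.0317). Cd274, which encodes the PD-1 ligand PD-L1, was higher in RARα-KO than in BATF-KO without RA (0.94, adjusted p = 0.0380), at 92.8 and 65.0 FPKM against 44.5 and 36.2 FPKM. None of 11 signalling phosphatases and adaptors passed in any of these comparisons. Of 13 activation-induced genes, Tnfrsf9, which encodes the costimulatory receptor 4-1BB, was higher in RARα-KO than in WT (1.96 without RA, adjusted p = 0.00253, and 1.69 with RA, adjusted p = 0.00472). Its levels without RA were 137 and 222 FPKM against 36.2 and 53.5 FPKM. Cd69, an early activation marker, was higher in RARα-KO than in BATF-KO (1.02, adjusted p = 0.0221, without RA). Most markers of B, NK and myeloid cells were also higher in RARα-KO. The part of those cells in the RARα-KO values of these genes was not tested.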

How the data were processed

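RNA of 12 libraries (6 groups of 2) was sequenced by the authors as paired-end reads of 150 bp, mapped with STAR 2.7.8a to GRCm38 and assigned to genes with RSEM 1.3.3, per the labels and the study's methods. The deposited values are FPKM as the authors made them, with 2 decimals. No counts were used here, so absolute depth is unknown. Steps between low values gave relative depths of 0.956 to 1.35 (WT replicate 1 set to 1). Genes with at least 1 FPKM in at least 2 libraries (13396) were tested as log2(FPKM + 1) in limma 3.58.1 under R 4.3.3, which fitted the 6 group means with a variance trend, with two-sided p adjusted over all tested genes in each of 11 comparisons and a threshold of 0.05. Comparisons that share a group share its libraries. RA and no RA libraries of the same number correlated in their deviations at 0.427 (WT), 0.398 (BATF-KO) and 0.578 (RARα-KO) and were treated as pairs in an alternative with a replicate block. Gene positions are from RefSeq, of the same build, matched for 9 of 9 members by Entrez ID. Named are all members, up to 3 genes passing per list and comparison, and per member with a mean of at least 1 FPKM the 3 genes most like it in Pearson correlation, of which those of Bhlhe40, Btla and Tigit are shown. Izumo1r levels, Foxp3 and Cd4 were added after their values were seen. The values of another marker gene are not reported here. The members and lists were chosen with earlier results of these data known. Alternatives were pseudocounts of 0.5 and 0.1, no filter, rescaling to TPM, median-of-ratios scaling, a fit of only the libraries compared, the block, and each library left out. Leaving out both RARα-KO libraries of 1 number was added after seeing the data. The scripts were tested on simulated data. Tables and plots used Python 3.11.15 (pandas 2.3.3, numpy 2.4.6, matplotlib 3.10.9).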

Additional observations from a re-analysis of the deposited data

Results flagged for a closer look

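Bhlhe40 and Tigit differed between the knockouts by a direct test. Bhlhe40 was higher in RARα-KO than in BATF-KO by 1.47 on the log2 scale without RA and by 1.28 with RA, and Tigit differed by -0.97 with RA (limma, adjusted p = 0.0199, 0.0374 and 0.0108). Groups of 2 libraries are too small for a search for outlying libraries. Outside the comparisons, the Cre entry was at 824.25 FPKM in RARα-KO replicate 1 and 79.29 FPKM in replicate 2, and with RA at 680.9 and 86.67 FPKM, above the WT libraries. Its relation to the 9 genes was not tested.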

How the results depend on the processing

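With 2 libraries per group and no counts, the limits of every call are the spread between 2 values and the shared variance estimate. Of the 41 member differences given with a fold change, 29 kept their direction in all alternatives. The number of members passing for RARα-KO against WT was 1 without RA. It went to 0 without a filter and in a fit of only the libraries compared, to 2 with median-of-ratios scaling and with the replicate block, to 0 without either pair of RARα-KO libraries, and to 0 to 1 on leaving out single libraries. With RA it was 2 and went to 0 without a filter, with only the libraries compared and without either RARα-KO pair, and to 0 to 2 on leaving out single libraries. For RARα-KO against BATF-KO without RA it was 1 and went to 0 without a filter and without either pair, to 2 with median-of-ratios scaling and the replicate block, and to 0 to 1 with single libraries left out. With RA it was 2 and went to 1 with a pseudocount of 0.1, without a filter and with only the libraries compared, to 3 with median-of-ratios scaling and the replicate block, to 0 without either pair and to 0 to 2 with single libraries left out. For RA in BATF-KO it was 0 and went to 0 to 1 with single libraries left out. Between genotypes the sources used here do not say what a shared replicate number marks. Deviations of same-numbered libraries correlated there at 0.0795 to 0.452, over 0.1 in 5 of 6 pairs of groups. Erythroid markers also split by the number in every genotype, at 143 to 502 FPKM in replicate 1 and 11.3 to 28.7 FPKM in replicate 2. The number thus goes with a shared difference that the main fit leaves out. Its nature is not given, and the block stands as an alternative. The block brought Btla past the threshold at an adjusted p of 0.0397 against WT without RA and of 0.0346 and 0.0348 against BATF-KO (limma), and changed no other member's call.

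Differences near 0 changed sign. Without both RARα-KO replicate 1 libraries, RARα-KO minus WT was 0.20 for Lag3 and -0.0644 for Tigit without RA, and 0.12 for Lag3 and -0.12 for Havcr2 with RA. As TPM, Btla in BATF-KO minus WT without RA was -0.0201. Leaving out single libraries moved RARα-KO minus WT without RA from -0.15 to 0.73 for Pdcd1, from -0.50 to 0.20 for Lag3 and from -0.20 to 0.29 for Tigit, and with RA from -0.61 to 0.35 for Lag3 and from -0.12 to 0.71 for Havcr2. It moved BATF-KO minus WT without RA from -0.20 to 0.69 for Pdcd1, from -0.14 to 0.16 for Btla and from -0.35 to 0.51 for Bhlhe40, and with RA from -0.021 to 0.28 for Btla and from -0.17 to 0.36 for Bhlhe40. The RA difference of Pdcd1 in WT moved from -0.22 to 0.67, and the RA difference of Tigit in RARα-KO minus WT from -0.48 to 0.0087. Over all genes, those passing for RARα-KO against WT were 80 to 661 without RA and 246 to 730 with RA, for BATF-KO against WT 0 to 21 and 1 to 21, for RARα-KO against BATF-KO 176 to 916 and 185 to 1000, for RA 0 to 70 in WT, 1 to 119 in BATF-KO and 0 to 12 in RARα-KO, and for the differences in RA response 0 to 16 and 0 to 14. The causes of these shifts were not tested.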

Other observations

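For the members not described by their nearest genes above, the highest Pearson correlations over the 12 libraries were Dnajc2 at 0.91 for Pdcd1, Sec31a at 0.86 for Lag3, Taf1d at 0.85 for Ctla4, Cltc at 0.93 for Cd160 and Gid8 at 0.90 for Tox. Dnajc2 is a ribosome-associated chaperone, Sec31a is part of the COPII coat that carries proteins out of the endoplasmic reticulum, and Cltc is the clathrin heavy chain. Between members the lowest correlation was that of Lag3 and Tox, at -0.81. Replicate 2 was the higher library for Pdcd1 in 5 of 6 groups and for Cd160, Ctla4 and Lag3 in 4 of 6. In WT without RA, replicate 2 held 1.98 times the Pdcd1, 2.04 times the Cd160, 2.03 times the Bhlhe40 and 1.60 times the Ctla4 of replicate 1, the library with the lowest activation-induced genes, and 0.703 times the Lag3.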
